A study of Mus musculus and blank sample with 91 samples.

Results

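Fecal bacteria of mice given Complete Freund's Adjuvant (CFA) without myelin peptide were compared with those of naïve mice at 8 days post immunization (dpi), a time before symptom onset in the disease model. The comparison used all samples labelled CFA or naïve at 8 dpi, 6 mice in each group, which are 12 of the 89 fecal samples with a row in the count table. All were female C57BL/6 mice bought at 8 weeks of age and kept on standard food. Naïve mice received no treatment, CFA mice received only the adjuvant, and a further group with experimental autoimmune encephalomyelitis (EAE) received myelin peptide in the same adjuvant together with pertussis toxin. The same 12 mice were also sampled at -2 dpi, before immunization. Mice were housed 2 to 3 per cage and whole cages were assigned to a treatment, and because the labels do not name the cage, treatment and cage cannot be told apart. P-values below count mice of 1 cage as independent samples, and exact permutation tests are two-sided unless stated.

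CFA is an emulsion of killed mycobacteria in mineral oil that activates innate immune cells and primes T cells against whatever antigen accompanies it, so a group given the adjuvant alone serves as the control for myelin-specific effects in EAE. The mouse gut holds mainly Firmicutes, which include lactobacilli, the spore-forming Clostridia and the Erysipelotrichaceae, and Bacteroidetes such as Prevotella. Mice share feces within a cage, and their communities tend to resemble those of cage mates. The measured quantity is the number of reads of the 16S rRNA gene per amplicon sequence variant (ASV), a sequence inferred from the reads. Levels are given here as relative abundance, the percent of a sample's counts, which is not the number of bacteria, since a taxon can gain in percent when another is lost. Totals at 8 dpi ranged from 31179 to 83614 counts per sample, with medians of 67932 in CFA mice and 62466.5 in naïve mice. A count of 0 allows up to 3 counts, or 0.00359% to 0.00962% of a CFA sample at 8 dpi, and this limit covers counting error only. The lowest count recorded for a genus in a sample at 8 dpi was 31 in naïve mice and 3 in CFA mice. Folds given below as at least a value are relative to the limit of 3 counts and would be smaller with a higher limit. Reads that the authors' pipeline removed as chimeric are not in the counts, and their part in the values at 0 was not tested.

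Turicibacter, a genus of the small intestine and colon that is known to respond to host bile and immune state, was the most abundant genus that separated the groups. Its relative abundance in naïve mice at 8 dpi was 4.14% at the lowest, 9.17% at the median and 40.1% at the highest, with a mean of 17.5% ± 15.3 (SD, n = 6). It had no counts in any of the 6 CFA mice. The groups did not overlap, and the difference in means had p = 0.00216 by a two-sided exact permutation test, the smallest p that 6 against 6 mice allow, and an adjusted p of 0.0244 over 45 genera. Relative to the limit of 3 counts per sample, Turicibacter was at least 3395-fold lower in CFA mice. Nearly all of its counts came from a single sequence between the primers, named Turicibacter sanguinis.

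Before immunization the same CFA mice had carried Turicibacter at 4.53% to 17.3%, with a median of 12.4% and counts in 6 of 6 mice. Naïve mice at -2 dpi had 6.24% to 28.8%, with a median of 14.1%, and the groups overlapped (two-sided exact permutation p = 0.245). The change from -2 to 8 dpi was -11.4 percentage points ± 5.57 (SD, n = 6) in CFA mice and 1.03 ± 16.4 (SD, n = 6) in naïve mice. It fell in 6 of 6 CFA mice (exact sign-flip p = 0.0312, the smallest that 6 mice allow), whereas 3 naïve mice had lower and 3 had higher values. In an edgeR quasi-likelihood test of the change since -2 dpi in CFA against naïve mice, Turicibacter was the only one of 51 genera to pass an adjusted p of 0.05 (adjusted p = 2.0e-06), or 1.96% of the genera tested. DESeq2 called 10 genera for this change. On the percent scale the difference between the changes, -12.4 percentage points, did not pass (exact permutation p = 0.106), since changes of naïve mice ranged from -19.6 to 26.6 percentage points.

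**Figure D1:**
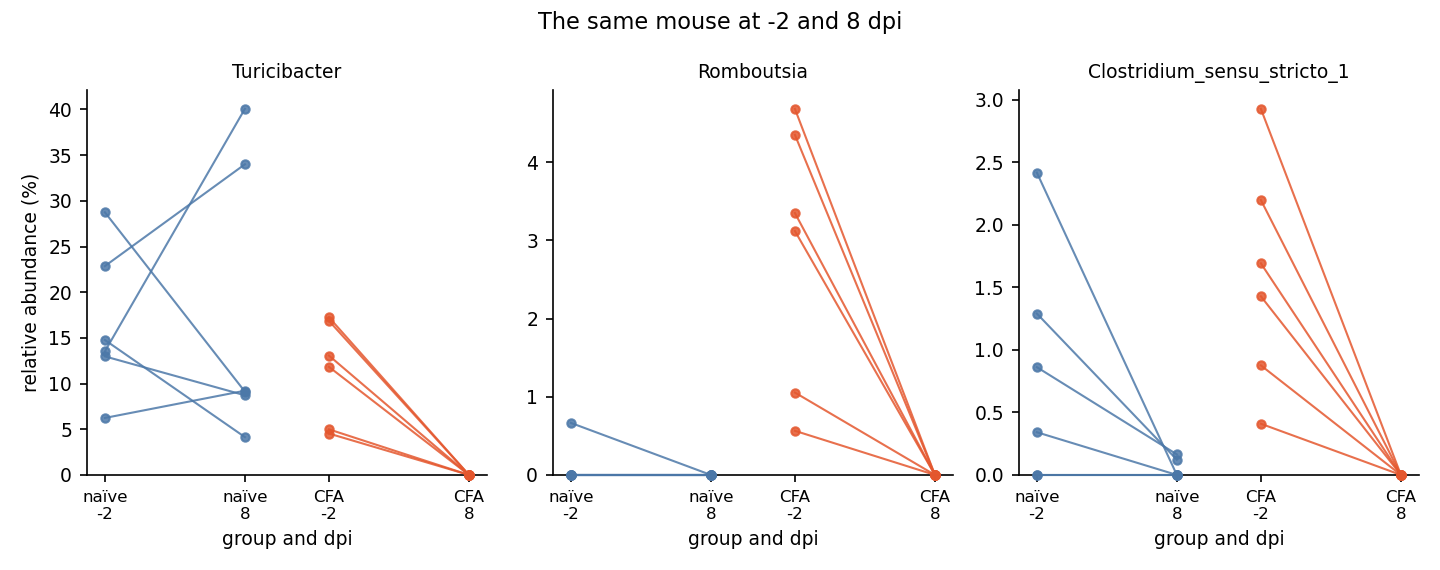
Relative abundance (%) of Turicibacter, Romboutsia and Clostridium_sensu_stricto_1 in the same mouse at -2 and 8 dpi, a line per mouse, with 6 naïve mice in blue and 6 CFA mice in red. All 3 genera had counts in all 6 CFA mice at -2 dpi and in 0 at 8 dpi, while Turicibacter had counts in all 6 naïve mice on both days.

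Romboutsia, a genus of Peptostreptococcaceae, and Clostridium_sensu_stricto_1, which holds classical clostridia, were listed here with Turicibacter as spore formers. Spore formation was not measured and may not hold for every species of these genera. Romboutsia and Clostridium_sensu_stricto_1 were also at 0 in every CFA mouse at 8 dpi. Romboutsia had been at 0.565% to 4.68% of the counts of CFA mice at -2 dpi, with a median of 3.24%, and had counts in 1 of 6 naïve mice at that time. At 8 dpi it had no counts in either group, so no difference could be tested at that day. Clostridium_sensu_stricto_1 was at 0.410% to 2.93% in CFA mice at -2 dpi, with a median of 1.56%, and had counts in 4 of 6 naïve mice. By 8 dpi it was at 0 in all CFA mice, and 2 of 6 naïve mice had counts, up to 0.164%. Values were lower at 8 dpi in all 4 naïve mice that had carried it. The difference between groups in the change of Clostridium_sensu_stricto_1 did not pass the test (edgeR adjusted p = 0.0630). It passed without naïve mouse 558 (edgeR adjusted p = 0.0377) and with DESeq2 (adjusted p = 2.0e-17). For Clostridium_sensu_stricto_1, at 0 in every CFA mouse at 8 dpi, the log2 fold change was -24.4 ± 2.75 in DESeq2 and -9.04 ± 2.91 in edgeR (SE). The size of the DESeq2 estimate is therefore not a measured fold. With the mouse as replicate block its edgeR adjusted p was 1.00. That of Romboutsia did not pass either (edgeR adjusted p = 1.00), and edgeR could not estimate it well because both groups were at 0 at 8 dpi. For Romboutsia the exact permutation test of the change gave p = 0.00433 and an adjusted p of 0.193.

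Of 12 genera with counts in all 6 CFA mice at -2 dpi, these 3 had counts in none at 8 dpi, and of 11 genera with counts in all 6 naïve mice at -2 dpi, 0 had counts in none at 8 dpi. These genera were listed as spore formers, a trait that was not measured and that Clostridia of other genera share. The list of these 3 was chosen with these results known. Together the 3 genera made up 15.9% ± 7.44 (SD, n = 6) of CFA samples at -2 dpi and 0% at 8 dpi, against 17.4% ± 8.84 and 17.6% ± 15.4 (SD, n = 6) in naïve mice. The 0% follows from each of the 3 being at 0. Turicibacter alone averaged 11.4% of CFA samples at -2 dpi, and 16.5% and 17.5% of naïve samples at -2 and 8 dpi. At the later days Turicibacter was again found in CFA mice, with counts in 3 of 6 at 14 dpi, 5 of 6 at 19 dpi and 5 of 5 at 29 dpi and means of 0.845%, 12.7% and 33.6%. Romboutsia had no counts in CFA mice on any of those days, and Clostridium_sensu_stricto_1 had counts in 1 of 6, 1 of 6 and 3 of 5, with a mean of 3.45% at 29 dpi. In EAE mice at 8 dpi, which had received the same adjuvant, Turicibacter had counts in 4 of 6 mice with a median of 7.27%, Clostridium_sensu_stricto_1 in 4 of 6 with a median of 5.36%, and Romboutsia in 2 of 6. These EAE values are a description and were not tested against the CFA group.

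In all, edgeR called 9 of 45 genera between CFA and naïve mice at 8 dpi, which is 20.0%, with 4 higher and 5 lower in CFA mice. Every called genus had counts of 0 in all 6 mice of 1 group, and all 9 of the 45 genera with that pattern were called. Of the 36 genera with counts in both groups, 0 were called by edgeR, and 0 had an unadjusted p under 0.05. The median dispersion that edgeR estimated over genera, a squared coefficient of variation, was 11.0, so the lack of a call does not show that these genera were alike in both groups. The exact permutation test of percent called 4 genera, or 8.89%: Turicibacter and Peptococcus-rc4-4, lower in CFA mice, and Anaerostipes and Stomatobaculum, higher. Each of these had counts in 6 of 6 mice of 1 group and 0 of 6 of the other, and the other 5 had counts in only 3 or 4 of 6.

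**Figure D2:**
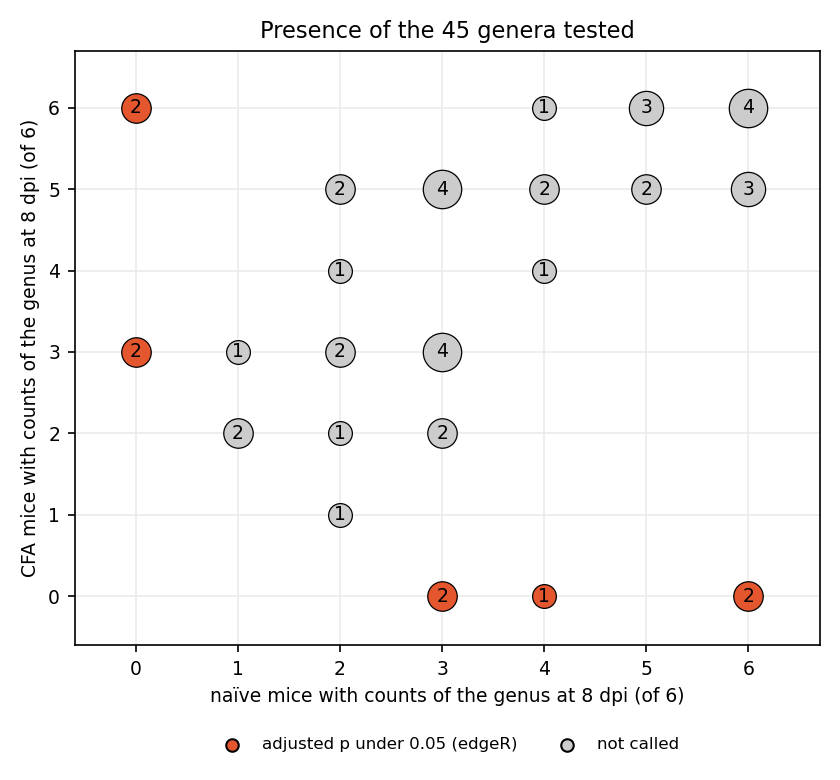
Presence of the 45 genera tested at 8 dpi. The x axis gives how many of 6 naïve mice, and the y axis how many of 6 CFA mice, had counts of the genus. The number in a circle is the number of genera at that point, and red marks the 9 called by edgeR, all of which lie on an axis at 0.

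Anaerostipes and Stomatobaculum, both Lachnospiraceae, had counts in CFA mice alone. Anaerostipes, whose cultured members make butyrate from sugars and lactate, was at 3.70% at the lowest, 6.28% at the median and 9.84% at the highest in CFA mice, and at 0 in all naïve mice. Relative to the limit of 3 counts per sample, Anaerostipes was at least 1230-fold higher in CFA mice (edgeR adjusted p = 0.000751). Stomatobaculum was at 0.489% to 1.99% of counts in CFA mice, with a median of 1.12%. Relative to the same limit, Stomatobaculum was at least 204-fold higher (edgeR adjusted p = 0.00278). All of its counts came from a sequence between the primers that also carries the name Lachnospiraceae_NK4A136-Clostridium XlVa, so the division between these names rests on bases of the primers. Neither genus had counts in naïve mice at -2 dpi, but both had counts in CFA mice already before immunization, Anaerostipes in 6 of 6 at 1.97% to 5.71% and Stomatobaculum in 5 of 6 at up to 1.40%. The change since -2 dpi was 2.34 percentage points ± 3.42 (SD, n = 6) for Anaerostipes in CFA mice, with higher values in 5 of 6 (exact sign-flip p = 0.156).

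Akkermansia and Peptococcus-rc4-4 were the reverse case, with counts in naïve mice alone. Akkermansia, which lives on the mucin of the gut lining, had counts in 3 of 6 naïve mice at 8 dpi, with a median of 3.66% and a highest value of 10.0%. The 3 other naïve mice had 0, as did all CFA mice, so the groups overlapped at 0. The edgeR adjusted p was 0.000144, while the exact permutation test of percent gave p = 0.182. Peptococcus-rc4-4, named Peptococcus niger at the species rank, was at 0.511% to 1.68% in naïve mice, with a median of 1.12% and counts in 6 of 6. Relative to the limit of 3 counts per sample, Peptococcus-rc4-4 was at least 219-fold lower in CFA mice (edgeR adjusted p = 0.00262). Neither was found in CFA mice before immunization, when Akkermansia had counts in 5 of 6 naïve mice and Peptococcus-rc4-4 in 3 of 6.

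At -2 dpi edgeR called 4 of 43 genera between the groups that were later to be CFA and naïve, or 9.30%. They were Akkermansia, Peptococcus-rc4-4, Anaerostipes and Stomatobaculum, 4 of the 9 genera called at 8 dpi, with the same direction on both days. By the exact permutation test of percent at -2 dpi, Anaerostipes passed (adjusted p = 0.0465), while Akkermansia and Stomatobaculum (adjusted p = 0.130 each) and Peptococcus-rc4-4 (adjusted p = 0.494) did not. That test also called Coprococcus/Eubacterium_F at -2 dpi, at 1.52% to 3.63% in naïve mice and 0% to 1.17% in CFA mice (adjusted p = 0.0465), a genus whose ranges overlapped at 8 dpi (exact permutation p = 0.528). Turicibacter was called at 8 dpi and for the change. The remaining 4 genera, called at neither -2 dpi nor for the change, were scarce. Tyzzerella-Clostridium XlVb had counts in 4 of 6 naïve mice (highest 0.761%) and Blautia in 3 of 6 (highest 0.689%), and both were at 0 in CFA mice at 8 dpi. Anaerotignum-Clostridium XlVb had counts in 3 of 6 CFA mice (highest 0.675%) and Neglecta in 3 of 6 (highest 0.220%), and both were at 0 in naïve mice. Their edgeR adjusted p-values lay between 0.0331 and 0.0474, and the exact permutation p was 0.0606 for Tyzzerella-Clostridium XlVb and 0.182 for the other 3.

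**Figure D3:**
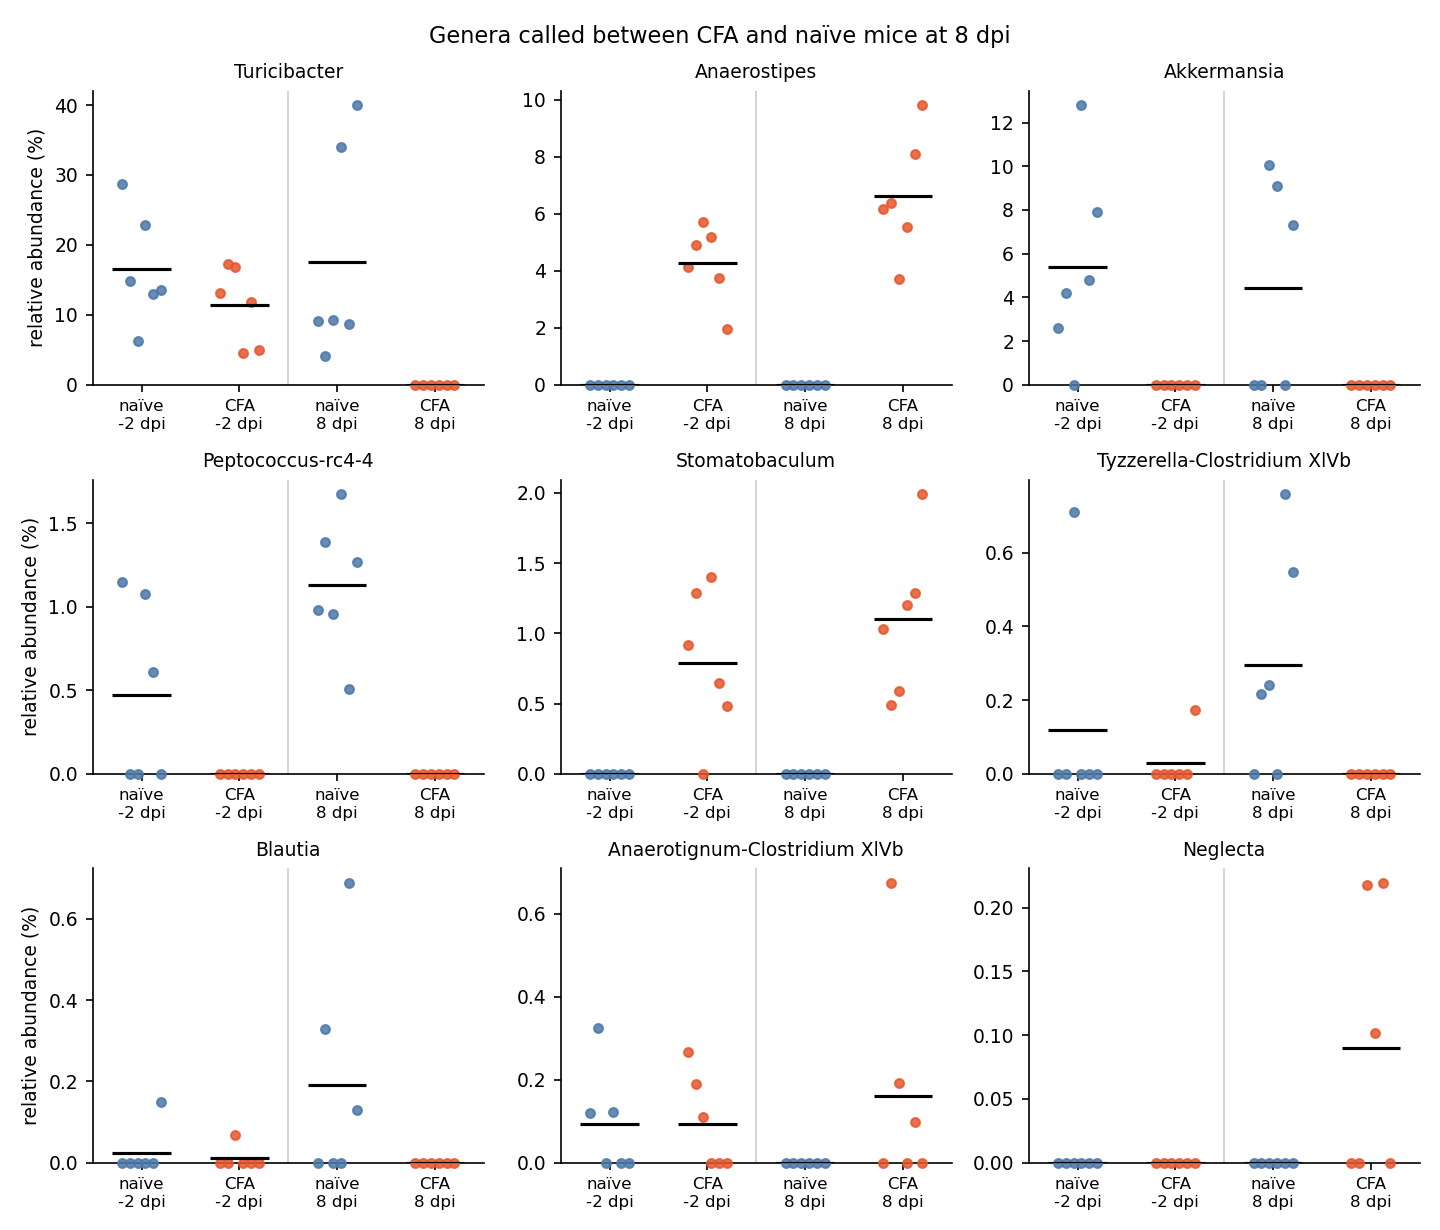
Relative abundance (%) of the 9 genera called by edgeR at 8 dpi, with 1 point per mouse (6 naïve in blue, 6 CFA in red) at -2 dpi and at 8 dpi and a black bar at the mean. Anaerostipes, Stomatobaculum, Akkermansia and Peptococcus-rc4-4 were found in 1 group alone at -2 dpi as well as at 8 dpi, while Turicibacter was in all 12 mice at -2 dpi.

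Lactobacillus, Prevotella and Roseburia, which had counts in both groups, were not called. Lactobacillus, a producer of lactic acid and the genus with the highest mean in both groups, was at 8.59% to 63.4% in naïve mice (median 24.6%) and at 6.42% to 57.7% in CFA mice (median 30.6%). Its means were 29.3% ± 21.2 and 29.9% ± 20.5 (SD, n = 6 each; exact permutation p = 0.961), with overlap over almost the whole range. Prevotella, a degrader of plant polysaccharides, was at 12.1% ± 6.38 in naïve and 16.4% ± 8.11 in CFA mice (SD, n = 6 each; exact permutation p = 0.305). Roseburia, a flagellated butyrate producer, was at 4.00% ± 4.70 and 5.90% ± 4.42 (SD, n = 6 each; exact permutation p = 0.494). With the spread of Lactobacillus and 6 mice a group, even a large difference could go without a call. The values therefore do not show that its abundance was alike in both groups.

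The other genera with a mean of at least 1% in either group were not called either. Among the Lachnospiraceae, Lachnospiraceae_NK4A136-Clostridium XlVa averaged 4.33% in naïve and 6.88% in CFA mice, Lachnospiraceae_NK4A136/Hungatella 1.99% and 2.49%, and Lachnospiraceae_NK4A136/COE1 1.03% and 1.67%. Reads assigned to the family without a genus averaged 3.61% and 1.94%, Hungatella 1.54% and 0.923%, and Coprococcus/Eubacterium_F 1.01% and 1.45%. All Hungatella counts at 8 dpi came from sequences between the primers that also carry the name Lachnospiraceae_NK4A136/Hungatella. Of the counts under that second name, 76.1% came from sequences shared with Hungatella or Lachnospiraceae_NK4A136-Clostridium XlVa. The division between these names therefore rests in part on bases of the primers. Ruminococcaceae_UCG-014 averaged 2.39% ± 1.18 in naïve and 3.86% ± 1.22 in CFA mice (SD, n = 6 each; exact permutation p = 0.0649). Ruminococcus averaged 1.26% and 1.95%, Flavonifractor 1.08% and 1.09%, and Oscillibacter, which held all counts of the family Oscillospiraceae here, 1.605% and 1.626%. Apart from Ruminococcaceae_UCG-014, the exact permutation p of these genera lay between 0.173 and 0.978.

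Barnesiella, of the Porphyromonadaceae, had counts in 2 of 6 naïve mice and 5 of 6 CFA mice, with means of 2.15% and 5.31% (exact permutation p = 0.156). All of its counts at 8 dpi came from ASVs whose sequence between the primers was also that of 99.8% of Prevotella counts, so the division between these 2 names rests on bases of the primers. Summed over both names, that sequence averaged 14.2% of naïve and 21.7% of CFA samples.

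A further 3 genera had an unadjusted exact permutation p under 0.05 without an empty group, none of which passed adjustment (adjusted p = 0.250 each). Dorea, a Lachnospiraceae genus that ferments sugars to acids and gas, was at a median of 2.36% in naïve and 0.803% in CFA mice. Ruminococcaceae_UCG-013 and Ruminococcaceae_UCG-010, which have no cultured type member under these names, had medians of 0.393% and 0% in naïve mice and 1.05% and 0.398% in CFA mice. All 3 ranges overlapped between the groups.

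At the family rank edgeR called 3 of 14 families at 8 dpi, or 21.4%, each lower in CFA mice. Erysipelotrichaceae, the family of Turicibacter, was at 4.14% to 40.4% in naïve mice, with a median of 9.46%, and at 0% to 1.10% in CFA mice, with a median of 0.426%. The log2 fold change was -5.78 ± 1.52 (SE; edgeR adjusted p = 0.00130), and the ranges did not overlap (exact permutation p = 0.00216, adjusted p = 0.0152). Its other genera, Absiella/Eubacterium D and Erysipelatoclostridium-Clostridium XVIII, had counts in 2 CFA mice each and 1 naïve mouse each. With Turicibacter left out of the counts, Erysipelotrichaceae was at 0.441% in CFA and 0.187% in naïve mice (exact permutation p = 0.307), so the difference of the family was that of Turicibacter. The other families called, Verrucomicrobiaceae and Peptococcaceae, held the counts of Akkermansia and Peptococcus-rc4-4.

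Lachnospiraceae, a large family of fermenting Clostridia, was at 33.03% ± 13.5 in CFA mice and 23.0% ± 17.0 in naïve mice at 8 dpi (SD, n = 6 each; exact permutation p = 0.281). Since -2 dpi it had risen in 6 of 6 CFA mice, by 11.4 percentage points ± 10.5 (SD; exact sign-flip p = 0.0312), and it was higher in 2 of 6 naïve mice with a mean change of 4.98 ± 16.9 (SD). The difference between these changes did not pass the test (exact permutation p = 0.433). With Turicibacter left out of the total, Lachnospiraceae was at 33.03% in CFA and 27.1% in naïve mice. Ruminococcaceae, which include degraders of resistant starch and cellulose, was at 10.3% ± 3.72 in CFA and 6.43% ± 4.12 in naïve mice (SD, n = 6 each; exact permutation p = 0.110).

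**Figure D4:**
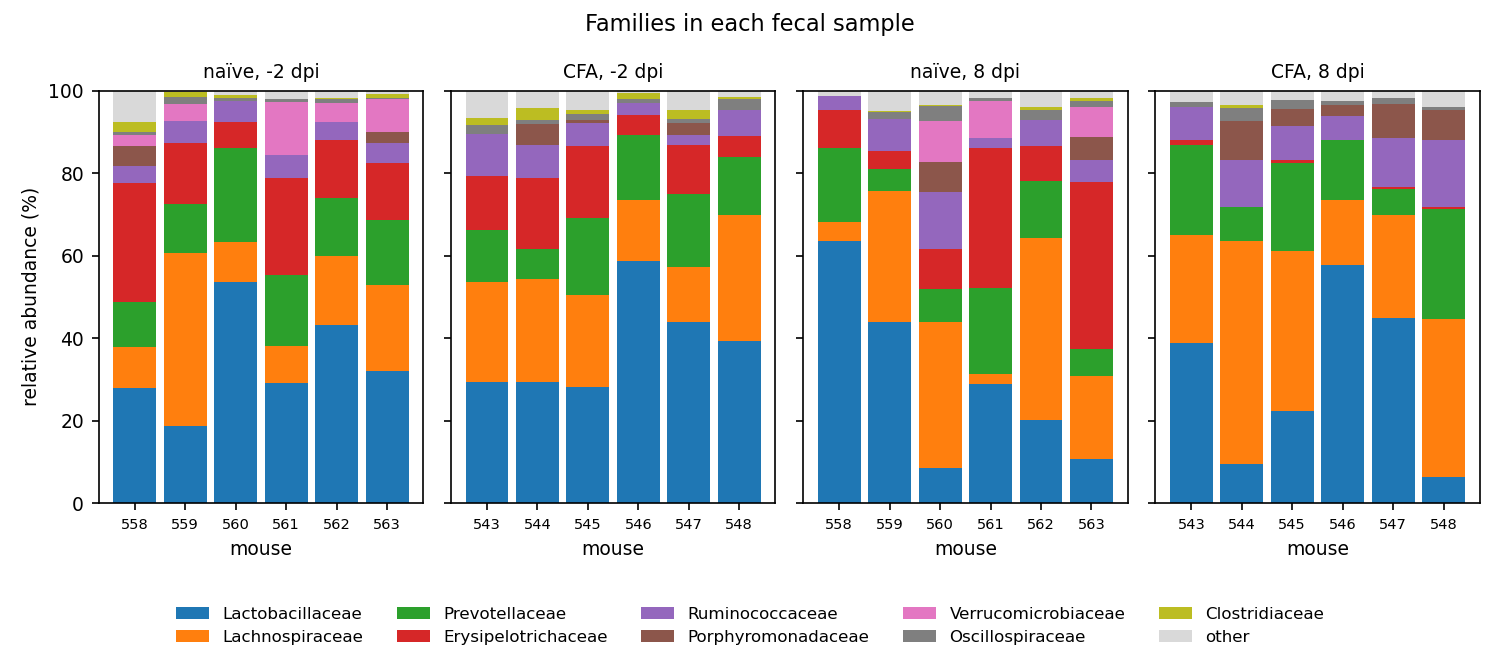
Relative abundance (%) of the 9 families with the highest mean over these 24 samples, with the rest as other, stacked for each mouse at -2 and 8 dpi. Erysipelotrichaceae, in red, took 4.14% to 40.4% in naïve mice and at most 1.10% in CFA mice at 8 dpi, while Lactobacillaceae, in blue, spanned a wide range in both groups.

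Groups of genera with a known role were counted in the same way, with lists chosen when earlier results were known. Of 7 butyrate producers tested, Anaerostipes alone was called, beside 20.0% of all genera tested. The sum of all 9 genera on the list, tested or not, was 17.3% ± 7.35 in CFA and 7.49% ± 6.23 in naïve mice (SD, n = 6 each) at 8 dpi, and had been 12.6% ± 3.01 and 6.30% ± 4.84 at -2 dpi. Anaerostipes alone averaged 6.62% of CFA samples at 8 dpi and 4.27% at -2 dpi, and 0% of naïve samples on both days. The sums were not tested. Among fibre degraders 0 of 2 genera tested were called, among Bacteroidales 0 of 2, and of the wall-less bacteria Anaeroplasma, the only member tested, was not called. Of 18 Lachnospiraceae genera 3 were called higher and 1 lower, and of 13 Ruminococcaceae genera 1, Neglecta, was called higher. Beside the 9 of 45 genera called in all, or 20.0%, these counts are too small to mark out a list. All 9 called genera were at 0 in 1 group, so each passed the filter on counts through the other group alone. The median difference over the genera tested was 0.220 percentage points for Lachnospiraceae and 0.200 for Ruminococcaceae, beside 0.161 for all 45 genera. Of names that can mark material from outside the gut community, Eukaryota and Pseudomonas E had no counts in the 12 samples, and Enterococcus had counts in 1 CFA mouse.

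Of the ASVs as deposited, 32 of 83 tested were called, or 38.6%, with 16 higher and 16 lower in CFA mice. All 32 had no counts in 1 of the groups. ASVs here include the primers, which have 4 ambiguous positions, so 1 gene sequence can be listed as many ASVs. After the primers were cut off, the 32 ASVs fell into 6 sequences, of which 3 were called as such. Of the called ASVs, 10 shared the sequence named Prevotella, 5 called lower and 5 called higher, 1 of them named Barnesiella. The 5 called lower all carried 1 form of the reverse primer and the 5 called higher all carried another, and each set was found in 3 mice. The sequence itself was found in all 12 mice and was not called. Among pairs of a sequence and a sample with at least 2 ASVs, 76.6% of 137 had a single form of the reverse primer.

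Of the 501 sequences left after the primers were cut off, 66 were tested and 9 were called by edgeR, or 13.6%, with 5 higher and 4 lower in CFA mice. Those of Turicibacter (adjusted p = 5.1e-10), Akkermansia, Anaerostipes and Peptococcus-rc4-4 repeat their genera. The sequence that held all Stomatobaculum counts was at 1.03% to 4.42% in 6 of 6 CFA mice and at 0 in all naïve mice (edgeR adjusted p = 0.00943). A pair of sequences named Roseburia and another named Lachnospiraceae_NK4A136/Hungatella had counts in 5, 3 and 4 of 6 CFA mice and in 0 naïve mice, although their genera were not called. All 5 sequences that were higher had no counts in naïve mice at -2 dpi and had counts in at least 3 CFA mice then. A sequence named Oscillibacter was at 0 in all CFA mice at 8 dpi, with counts in 4 of 6 naïve mice, and had been found in 5 of 6 mice of each group at -2 dpi (edgeR adjusted p at 8 dpi = 0.0114, exact permutation p = 0.0606).

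Whole communities were compared by the Bray-Curtis distance on genus percents, which is 0 for equal and 1 for disjoint samples. At 8 dpi the mean distance between a CFA and a naïve mouse was 0.509 and that between mice of the same group 0.437, a difference of 0.0726 (one-sided exact permutation p = 0.0281). At -2 dpi the corresponding means were 0.348 and 0.305, a difference of 0.0423 (one-sided exact permutation p = 0.0238). The groups were apart on both days. Without Turicibacter the difference was 0.0248 at 8 dpi (p = 0.154) and 0.0523 at -2 dpi (p = 0.00433), both by the one-sided exact permutation test. Each mouse was also compared with its own sample of -2 dpi, at a mean distance of 0.344 ± 0.125 in CFA mice and 0.416 ± 0.148 in naïve mice (SD, n = 6 each; exact permutation p = 0.377).

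**Figure D5:**
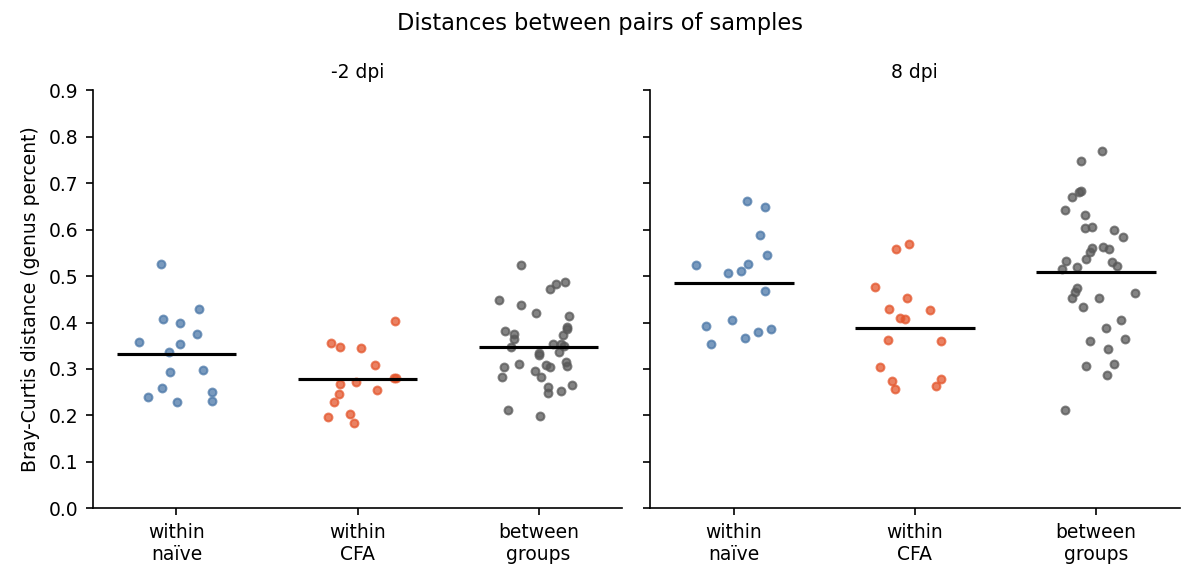
Bray-Curtis distances on genus percents between pairs of samples at -2 and 8 dpi (0 equal, 1 disjoint), with a point per pair and a black bar at the mean. Distances between groups averaged 0.348 at -2 dpi and 0.509 at 8 dpi, above the mean within each group on both days, and the pairs share mice.

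Alpha diversity, the variety within a sample, was not separated between the groups. The Shannon metric of sequences without primers was 2.34 ± 0.772 in naïve and 2.59 ± 0.570 in CFA mice, and the number of such sequences was 40.3 ± 17.4 and 46.7 ± 8.59 (SD, n = 6 each). Over ASVs as deposited the differences had the other sign, with a Shannon metric of 4.20 ± 0.326 in naïve and 4.07 ± 0.167 in CFA mice and 94.8 ± 28.2 and 87.8 ± 11.0 ASVs (SD, n = 6 each). The exact permutation p-values ranged from 0.385 to 0.576, and the adjusted p over the 4 metrics was 0.576 for each. Between -2 and 8 dpi CFA mice lost 9.17 ± 2.86 and gained 11.0 ± 4.15 genera per mouse, and naïve mice lost 9.50 ± 6.25 and gained 9.50 ± 5.86 (SD, n = 6 each; exact permutation p = 0.957 and 0.654). Naïve mice 558 and 561 had counts of only 14 and 17 genera at 8 dpi, and mouse 558 had lost 20 genera. The other naïve mice had counts of 28 to 37 genera and CFA mice of 27 to 36. Body weight at 8 dpi was 18.3 g ± 0.426 in CFA and 18.1 g ± 0.767 in naïve mice (SD, n = 6 each; exact permutation p = 0.610).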

How the data were processed

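Counts of reads per ASV and sample were deposited by the authors, who sequenced the V3 and V4 regions of the 16S rRNA gene from fecal DNA, inferred ASVs with DADA2 and removed chimeras, and were used without rarefying. Names come from the authors' curated taxonomy. Of 89 rows in the count table, 1 had a total of 0 and 88 were used. The labels also list 2 water controls, which were not analysed here. Each primer was cut off an ASV where it matched (both did in 2274 of 2295), and ASVs with the same remaining sequence were summed, giving 501 sequences. Counts were summed to 73 genera and 26 families and divided by each sample's total.

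Taxa were tested with edgeR (version 4.0.16, R 4.3.3), by its quasi-likelihood F-test, using TMMwsp factors from genus counts and 15 groups of treatment and day in 1 fit, on taxa with counts in at least 3 of the 12 samples compared. The main fit had no term for the mouse, so samples of 1 mouse on different days entered it as independent. SEs of log2 fold changes were derived from the test's F. Percents, per-mouse changes, distances, diversity and weights were compared with exact permutation tests over mice computed with SciPy 1.17.1, pandas 2.3.3 and numpy 2.4.6 (Python 3.11.15). Calls required a Benjamini-Hochberg adjusted p under 0.05. DESeq2 1.42.0 and limma 3.58.1 were used for alternatives, along with other filters, scalings and leaving out mice.

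The mouse numbers of the labels pair samples of -2 and 8 dpi. The correlation of a mouse's deviations from its group means on both days was over 0.1 in 4 of 12 mice (median 0.0517). The best match of a mouse was its own sample in 1 of 12 mice, so the pairing rests on the labels alone.

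Named are genera and families with a mean of at least 1% in either group, all called genera and families, the 10 called ASVs and sequences with the largest difference in mean percent, and members of lists fixed by role. Sequences are described by name. Members, lists and tests were chosen with earlier results of these data known, and genera not in this rule (Romboutsia, Ruminococcaceae_UCG-010, the other genera of Erysipelotrichaceae) were named after their values were seen or as list members.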

Additional observations from a re-analysis of the deposited data

Results flagged for a closer look

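Among 58 sets of 6 values, a single mouse stood apart from the other 5 of its group in 3. Chance alone gives about 1 in 20 for normally distributed values. Percents here are skewed, with many at 0, so that rate need not apply. In CFA mice at 8 dpi the values standing apart were the highest of Anaerotignum-Clostridium XlVb (0.675%, mouse 544) and that of Ruminococcus (5.52%, mouse 548). In naïve mice it was the highest value of Roseburia (12.9%, mouse 562). The change of Turicibacter since -2 dpi differed between groups in the edgeR test of counts (edgeR adjusted p = 2.0e-06). In percent, the difference between the changes was -12.4 percentage points in CFA minus naïve mice (exact permutation p = 0.106).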

How the results depend on the processing

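Of the 9 genera called at 8 dpi, Turicibacter, Anaerostipes, Peptococcus-rc4-4 and Stomatobaculum were called under all 18 alternatives run for each, and Akkermansia under the 14 in which it was tested. Blautia was called under 3 of 14, Neglecta under 5 of 14, Anaerotignum-Clostridium XlVb under 6 of 14 and Tyzzerella-Clostridium XlVb under 13 of 17. The genus count of 9 became 14 with no filter in the comparison, 4 with counts required in at least 6 of the 12 samples, and 4 with Fisher's exact test of presence, which was chosen after seeing the data, and it ranged from 5 to 8 when a mouse was left out. It was 5 without CFA mouse 544, 545 or 547 and without naïve mouse 560, 561 or 563. The 3 families became 5 with no filter, and 2 to 4 when a mouse was left out. The 32 ASVs became 0 of 28 with counts in at least 6 of the 12 samples, where 0 had an unadjusted p under 0.05 in edgeR, and ranged from 13 to 30 when a mouse was left out, with 21 or fewer without CFA mouse 548 or naïve mouse 558, 559, 560, 561 or 562. The 9 sequences without primers became 16 with DESeq2 and 4 with counts in at least 6 samples, and 7 to 10 when a mouse was left out. DESeq2 called 10 genera for the change since -2 dpi, against 1 with edgeR, 1 with the mouse as replicate block and 1 to 2 without a mouse, 2 without naïve mouse 558 or 560. The genus called with the replicate block was Turicibacter, so the block changed no call. The exact permutation calls of 4 genera and 2 families became 0 and 0 with medians, 1 family with Turicibacter left out of the total, and 2 to 4 genera and 0 to 2 families without a mouse, where fewer regroupings exist, with 2 genera without CFA mouse 544, 545, 546, 547 or 548 and 0 families without any 1 CFA mouse. The difference in community distance at 8 dpi was 0.0537 to 0.0993 and at -2 dpi 0.0336 to 0.0614 without a mouse. It lost the call at 8 dpi without CFA mouse 543, 545, 547 or 548 and at -2 dpi without CFA mouse 543 or 547. At 8 dpi it was 0.0248 without Turicibacter. Using Jaccard distance on presence of genera, Bray-Curtis on square roots and Bray-Curtis on sequences without primers, it was 0.0920, 0.0978 and 0.107 at 8 dpi. These had one-sided exact permutation p = 0.00216, 0.00216 and 0.00433. At -2 dpi the same 3 gave 0.0848, 0.0772 and 0.0610 (one-sided exact permutation p = 0.00216, 0.00216 and 0.00649). The difference in the number of ASVs ranged from -15.0 to 1.43, turning its sign without naïve mouse 560, and that in weight from -0.0433 g to 0.417 g, turning without naïve mouse 561. Ranges for the Shannon metric were 0.0273 to 0.435 for sequences and -0.215 to -0.0535 for ASVs, and 1.47 to 10.5 for the number of sequences. The causes were not tested.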
